A study of Mus musculus with 24 samples.

Results

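The urea cycle genes Cps1, Otc, Ass1, Asl, Arg1, Arg2, Nags and Slc25a15 were followed on 24 1-color Agilent expression arrays of liver, brain, heart and skeletal muscle. All 8 genes were on the array, through 10 of its 55681 distinct non-control probes, which were chosen because their RefSeq accession belongs to 1 of these genes. Ass1 and Otc had 2 probes each, and the other 6 genes had 1. The brighter probe stood for a gene with 2. The array named 21368 genes in all.

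The tissues came from 6 male mice, 3 wild-type (WT) and 3 carrying Rap1 I312R (labelled MUT, called Rap1 KI/KI or KI here), an amino acid change made by CRISPR/Cas9 in every cell of the animal, carried on both alleles, and backcrossed to C57BL6 (the C57BL/6N strain in the methods). RAP1, encoded by Terf2ip, is a telomere-binding protein, and this change keeps it from binding its telomeric partner TRF2. Each mouse gave 1 array per tissue. The animals, numbered by genotype as their labels run, are WT1, WT2, WT3, KI1, KI2 and KI3. Each genotype held 1 mouse aged 5 months (WT1 and KI1), and the remaining 4 were aged 2 months. Whether the Terf2ip probe covers the changed residue was not examined. Its KI minus WT difference lay between -0.41 and 0.12 (log2) in the 4 tissues, with the lowest adjusted p 0.66 by limma. It therefore does not check the genotype labels.

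A level is the log2 of the processed signal minus the 75th percentile of the same array, so 0 marks that percentile and 1 unit is a doubling of signal. A signal that the scanner software did not call well above background has no measured level. A fold against a group with such arrays is given as a lower bound ("at least"). Each such array was set at the lowest level of any probe called well above background on it, if it read less. A bound holds on this scale and for this choice of lowest level only, and other background correction gave smaller differences. Levels of different probes depend on how each probe hybridizes and were not set against each other. Between 56.5% and 72.7% of probes were well above background per array. All 8 hepatocyte markers, genes of secreted plasma proteins such as Alb, Ttr and Apoa1 and of liver enzymes such as Cyp2e1, were well above background on every liver array, with a mean level of 8.24 to 9.14.

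The urea cycle turns ammonia, released when amino acids are broken down, into urea for excretion, and it runs in full in hepatocytes, mainly those around the portal vein. It starts in the mitochondrion, where carbamoyl phosphate is made from ammonia and joined to ornithine to give citrulline, and it goes on in the cytosol, where citrulline becomes argininosuccinate, then arginine, which arginase splits into urea and ornithine. Cells outside the liver use parts of the same route, chiefly to make arginine or to break it down, without making urea in bulk.

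RefSeq promoters of the GRCm38.p6 build were at hand for 4 of the 8 genes, and 3 are shown because these genes shared a high liver level and differed in how far they were detected elsewhere. Each runs over the 250 bases before the annotated start, 5′ to 3′, with capitals marking GGGCGG (the GC box) on either strand.
Otc, chrX:10252055-10252304, plus strand: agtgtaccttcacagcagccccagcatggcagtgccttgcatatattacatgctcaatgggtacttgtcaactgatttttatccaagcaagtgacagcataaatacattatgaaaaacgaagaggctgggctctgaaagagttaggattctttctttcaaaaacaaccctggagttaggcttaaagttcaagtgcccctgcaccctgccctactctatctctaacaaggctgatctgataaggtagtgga
Nags, chr11:102145263-102145512, plus strand: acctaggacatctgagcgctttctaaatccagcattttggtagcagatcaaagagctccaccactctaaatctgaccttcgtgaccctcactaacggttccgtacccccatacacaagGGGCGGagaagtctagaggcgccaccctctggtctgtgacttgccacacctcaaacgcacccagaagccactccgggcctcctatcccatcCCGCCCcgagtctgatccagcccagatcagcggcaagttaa
Ass1, chr2:31470020-31470269, plus strand: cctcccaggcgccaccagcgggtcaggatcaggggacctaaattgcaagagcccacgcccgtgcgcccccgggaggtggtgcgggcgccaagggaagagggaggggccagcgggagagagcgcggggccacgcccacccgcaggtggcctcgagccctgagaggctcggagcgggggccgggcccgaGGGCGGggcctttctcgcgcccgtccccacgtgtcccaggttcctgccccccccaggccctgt
The Otc window held 1 CpG and 43.6% G and C, and 7.87% of the 32851 RefSeq promoters held fewer CpGs. The Nags window held 11 CpGs, the number in the first of the Slc25a15 windows (chr8:22398622-22398871, minus strand), and 64.4% of promoters held fewer. The Ass1 window held 23 CpGs, more than 86.7% of promoters, and the other Slc25a15 window (chr8:22398278-22398527, minus strand) held 43, more than 99.3%. GGGCGG was in the windows of Ass1, Nags and Slc25a15 and not in that of Otc, against 32.7% of all promoters. No window of these 4 genes held the core promoter element TATAAA, which 12.4% of all promoters held. The same was so for CCAAT (33.8% of promoters), for the HNF4 pattern CAAAGNNCA (5.49%), for the C/EBP pattern TTGCNNAA (9.56%) and for the cyclic AMP response element TGACGTCA (1.55%). Both strands were searched and none of these patterns overlap GGGCGG.

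The cycle was a liver programme in these mice. In WT mice, 6 of the 8 genes (Cps1, Nags, Otc, Ass1, Asl and Arg1) were higher in liver than in each of the other 3 tissues at an adjusted p under 0.05 (limma), which held for 16.9% of the 41984 probes tested. All 6 exceeded every other tissue by 5 log2 units or more, as 1.94% of probes did. The same 6 genes met both criteria in KI mice, against 20% and 1.87% of 42076 probes. Slc25a15 met them in neither genotype, and Arg2 was the gene lower in liver than in brain. Bulk RNA cannot tell fewer cells of a type from less RNA per cell.

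**Figure D1:**
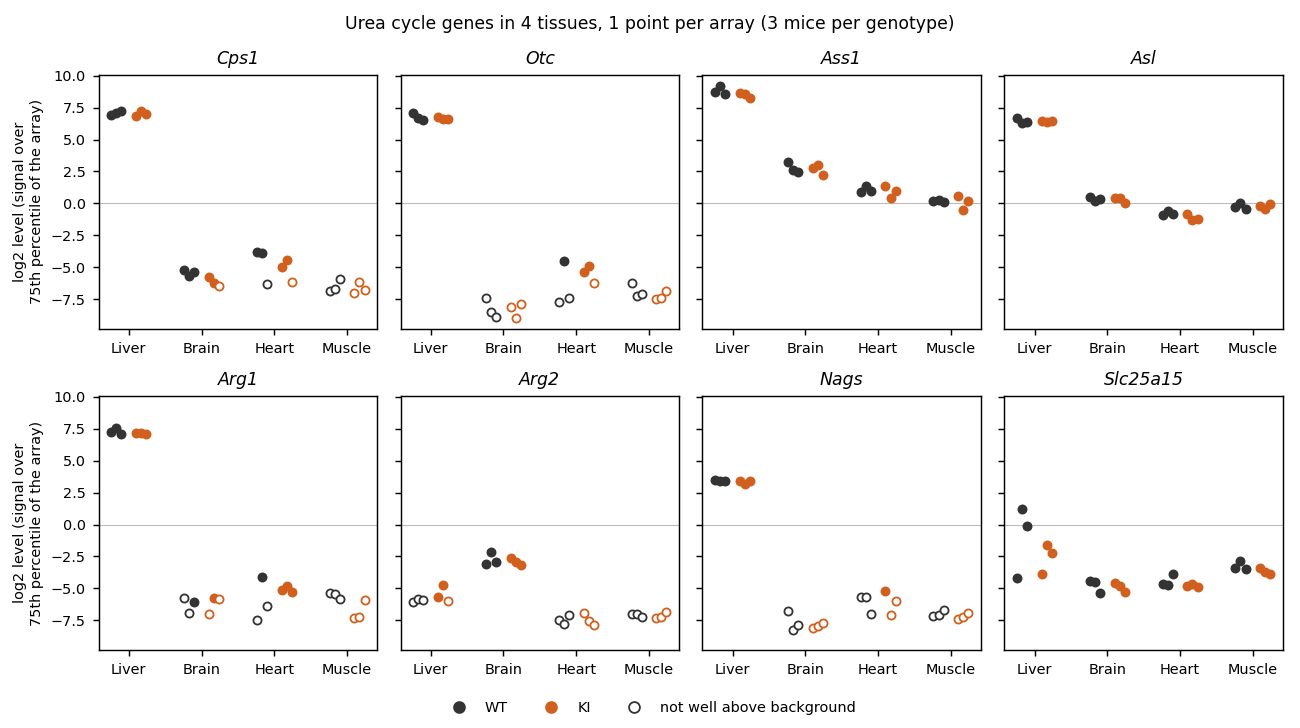
Log2 level (signal over the 75th percentile of the array) of the 8 genes by tissue, 1 point per array, WT in black and KI in orange; open points were not well above background. Cps1, Otc, Ass1, Asl, Arg1 and Nags lie far above the other tissues in all 6 livers, Arg2 is highest in brain, and Slc25a15 spreads from -4.17 to 1.18 in liver.

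Cps1 (carbamoyl phosphate synthetase, the entry enzyme) read 6.89, 7.05 and 7.27 in the livers of WT1, WT2 and WT3 and 6.82, 7.24 and 6.99 in those of KI1, KI2 and KI3. In brain it read -5.23, -5.67 and -5.39 in WT and -5.73, -6.24 and -6.43 in KI, the last not well above background. In no muscle did it rise above background. Every liver stood far above every brain, and the genotypes interleaved in liver. WT liver was 5780-fold above brain (12.50 log2 units, SE 0.56, adjusted p = 5.2e-09, limma, n = 3 mice), at least 2700-fold above heart, where 2 of 3 arrays gave a measured level, and at least 4660-fold above muscle. Nags, the enzyme whose product N-acetylglutamate switches CPS1 on, read 3.45, 3.38 and 3.43 in WT livers and 3.40, 3.19 and 3.37 in KI livers. It was the steadiest of the 7 genes tested in liver, with an SD within genotype of 0.09 (98.5% of the 35213 liver probes varied more). Outside the liver only the heart of KI1, at -5.19, was well above background, so that WT liver was at least 855-fold above brain, at least 477-fold above heart and at least 371-fold above muscle.

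Otc (ornithine transcarbamylase, which joins carbamoyl phosphate to ornithine) read 7.05, 6.68 and 6.52 in WT livers and 6.74, 6.63 and 6.57 in KI livers. No brain or muscle array was well above background, which put WT liver at least 8600-fold above brain and at least 3740-fold above muscle. The other Otc probe, spotted 10 times on each array, read 5.00 to 5.30 in the 6 livers and was not well above background on any array of another tissue. It gave bounds of 2820-fold, 1640-fold and 1220-fold against brain, heart and muscle. The heart values of the brighter probe, measured in 1 of 3 WT and 2 of 3 KI mice, were therefore not seen with the dimmer one.

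Slc25a15 (the carrier that exchanges ornithine and citrulline across the inner mitochondrial membrane) was well above background on all 24 arrays and had another pattern. Its livers read -4.17, 1.18 and -0.09 in WT1, WT2 and WT3 and -3.88, -1.62 and -2.22 in KI1, KI2 and KI3. The brains read -4.42, -4.49 and -5.33 in WT and -4.58, -4.81 and -5.30 in KI, and the hearts -4.67, -4.71 and -3.87 in WT and -4.79, -4.69 and -4.87 in KI. Muscle levels were -3.37, -2.83 and -3.47 in WT and -3.44, -3.69 and -3.84 in KI, so the muscles were above every brain. The livers of both 5-month-old mice lay within the range of the hearts and below every muscle, and those of the 4 younger mice were above every array of the other tissues.

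For Slc25a15 the WT liver mean was 13.2-fold above brain (adjusted p = 0.0073, limma, n = 3 mice), 10.5-fold above heart (adjusted p = 0.017) and 4.58-fold above muscle (adjusted p = 0.092), with overlapping groups against heart and muscle. These calls turned on single livers: without WT2 or without WT3 neither the brain nor the heart difference was called (adjusted p = 0.071 to 0.18), and without WT1 all 3 were (0.00011 to 0.0011). Leaving out only the heart array of WT2 took the heart difference to an adjusted p of 0.05, and with slide as a term neither was called (0.085 and 0.26). In KI mice liver was 5.02-fold above brain (adjusted p = 0.001) and 4.63-fold above heart (adjusted p = 0.0019), and the muscle difference of 2.12-fold was not called (adjusted p = 0.063). It was called without KI1 (0.0039), with quantile normalization (0.044) and with the z-scores of the series table (0.046). All muscles lay above all brains, with a mean ratio of 2.88 in WT (adjusted p = 0.23) and of 2.36 in KI, where it was called (adjusted p = 0.041), though not without KI2 (0.10) or KI3 (0.18) or when mouse was a block (0.052). Brain and heart differed by -0.33 log2 units in WT (95% interval -2.59 to 1.92) and -0.11 in KI (-1.14 to 0.91).

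The cytosolic enzymes Ass1 (argininosuccinate synthetase) and Asl (argininosuccinate lyase), which together make arginine from citrulline, were the 2 cycle enzymes measured on all 24 arrays. Ass1 read 8.70, 9.18 and 8.55 in WT livers, 3.25, 2.62 and 2.45 in WT brains, 0.92, 1.37 and 0.98 in WT hearts and 0.20, 0.28 and 0.08 in WT muscles. The KI values in the same order of mice were 8.63, 8.55 and 8.26 in liver, 2.78, 2.97 and 2.24 in brain, 1.35, 0.41 and 0.98 in heart and 0.55, -0.52 and 0.16 in muscle. The order liver, brain, heart, muscle held for the means of both genotypes, with no overlap between WT tissues. WT liver was 65.6-fold above brain (adjusted p = 4.6e-09), 211-fold above heart and 395-fold above muscle, and the dimmer Ass1 probe gave 114-fold, 320-fold and 689-fold.

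Between the other tissues, Ass1 was 3.21-fold higher in WT brain than in heart (adjusted p = 0.00023) and 6.02-fold higher than in muscle (7.4e-06). The same differences in KI mice were 3.37-fold and 6.07-fold. Heart and muscle were neighbours. On the brighter probe WT heart was 1.87-fold above muscle at an adjusted p of 0.025 (limma). That call was lost when any WT mouse was left out (adjusted p = 0.055 to 0.17). Within the slide that held both tissues, with 1 WT heart, the difference was 0.8 log2 units. In KI mice the brighter probe was not called (1.80-fold, 0.084), except with normexp background correction (0.037). The dimmer Ass1 probe was called in both genotypes, 2.16-fold in WT (adjusted p = 0.0055, limma) and 2.09-fold in KI (0.042).

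Asl read 6.71, 6.28 and 6.39 in WT livers and 6.48, 6.36 and 6.46 in KI livers. Its brains lay between 0.05 and 0.49, its muscles between -0.47 and 0.03 and its hearts between -1.28 and -0.60, all 6 mice counted. WT liver was 70.2-fold above brain (adjusted p = 1e-09), 152-fold above heart and 104-fold above muscle. Brain was above heart in both genotypes, 2.17-fold in WT (adjusted p = 0.0011) and 2.61-fold in KI (0.00015). The order of heart and muscle was the reverse of that of Ass1: the muscle to heart ratio of Asl was 1.47 in WT (adjusted p = 0.083) and 1.83 in KI (0.0076), the latter called only with all 3 KI mice in the fit (0.061 to 0.098 without 1). Brain was 1.48-fold above muscle in WT and 1.42-fold in KI, each at an adjusted p of 0.045, and each call was lost with some mouse left out.

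Arg1 and Arg2 both split arginine into urea and ornithine, Arg1 in the cytosol of hepatocytes and Arg2 in mitochondria of many other cells. Arg1 read 7.27, 7.55 and 7.12 in WT livers and 7.13, 7.15 and 7.10 in KI livers. It was well above background in 1 WT brain (WT3, -6.07), 1 KI brain (KI2, -5.77), and no muscle, and WT liver was at least 5510-fold above muscle. With 1 of 3 WT arrays measured in each, brain was exceeded by at least 10300-fold and heart by at least 5010-fold. Arg2 was highest in brain, where it read -3.05, -2.12 and -2.95 in WT and -2.61, -2.95 and -3.14 in KI. It was not well above background in any heart or muscle nor in any WT liver, and it was so in the livers of KI1 and KI2, at -5.68 and -4.77. WT brain was at least 7.75-fold above liver (adjusted p = 1.3e-06, limma), at least 7.13-fold above heart and at least 5.32-fold above muscle. With normexp background correction the WT liver minus brain difference was smaller, at -1.12 log2 units. Brain minus heart was 1.32 and brain minus muscle 0.76 there, and each was still called. KI brain was at least 5.93-fold above liver, where 2 of 3 arrays gave a measured level, and liver minus brain was -1.07 with normexp.

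**Figure D2:**
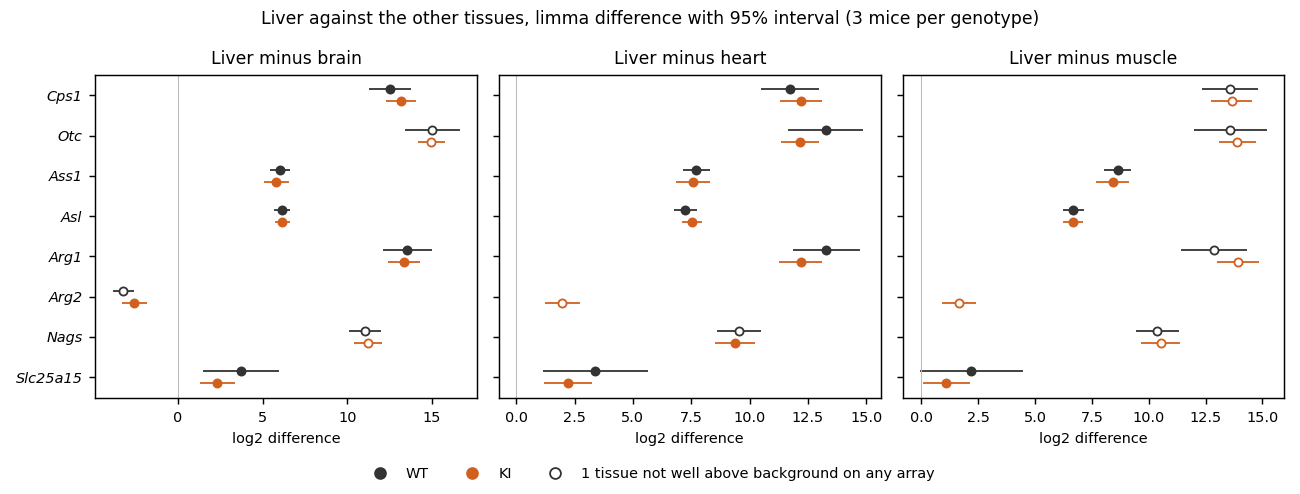
Liver minus brain, heart or muscle for each gene on the log2 scale (x axis), limma difference with its 95% interval, WT in black and KI in orange, 3 mice each; open points have 1 tissue not well above background on any array, and pairs with both tissues so are left out. WT and KI intervals overlap for every gene, the 6 liver-rich genes lie at about 6 units or more against every tissue, Slc25a15 at 1.09 to 3.72, and Arg2 below 0 against brain.

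Over all 8 genes, 7 were called higher in WT liver than in brain (38.3% of probes) and 1, Arg2, lower (29%). Of the 7 with a measured level in liver or heart, all were called higher in liver (25.9% of probes) and none lower (23.9%), and against muscle 6 of 7 were higher (27.4%) and none lower (26.7%). In KI mice liver was higher than brain for 7 of 8 (41.3%) and lower for Arg2 (29.7%), higher than heart for 8 of 8 (29.5%; 29.1% of probes lower) and higher than muscle for 7 of 8 (30%; 31.5% lower). Arg2 is among the latter because it was measured in 2 KI livers: its bound over KI heart was 1.23-fold, and it had no bound above 1 over KI muscle.

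Among brain, heart and muscle the genes split. Ass1, Asl and Arg2 were called higher in WT brain than in heart (23.9% of probes) and than in muscle (24.4%), and none was called lower (31.6% and 33.7%). Cps1 in WT brain minus heart was -0.75 (adjusted p = 0.28), and within the slide that held both tissues it was -1.67 and called (0.0023). In KI mice the same 3 genes were higher in brain than in heart (22.4%) and muscle (23.4%). Otc, Arg1 and Nags were called lower in KI brain than in heart (33.8%), all at or near background, and Slc25a15 lower in KI brain than in muscle (34.5%). Between heart and muscle, Cps1 and Ass1 were called higher in WT heart (14.4%) and none lower (14%), and in KI mice Cps1, Otc and Arg1 were called higher in heart (12.5%) and Asl lower (13.9%). No muscle was well above background for Cps1, Otc or Arg1, so these differences were bounded. In WT mice the Cps1 bound was 1.36-fold, with overlapping groups. The measured Cps1 hearts of both genotypes were on another slide than the muscles. The WT3 heart, on the muscle slide, was not well above background at -6.31, within the WT muscle readings (-6.85 to -5.90). The KI bounds were 1.08-fold for Cps1 and 1.17-fold for Arg1, with none above 1 for Otc. The Arg1 call was lost without KI1 (adjusted p = 0.09) or KI2 (0.15), and the difference was -0.33 with normexp background correction. The lower Arg1 in KI brain was not called either without KI1 (0.23) or KI2 (0.13) or with quantile normalization (0.075).

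The 6 livers shared 1 slide, which also held the brains of WT1 and KI1. Within that slide the WT livers stood 12.29 (Cps1), 5.56 (Ass1) and 5.97 (Asl) log2 units above the brain of WT1. Otc, Arg1 and Nags were not well above background in that brain, and the livers were at least 12.79, 13.02 and 9.46 units higher. A limma fit called all 6 (adjusted p = 1.1e-05 to 0.00012) and not Slc25a15 (3.39, adjusted p = 0.16), on the assumption that the lone brain varies as the livers do. With slide as a term in the 12 WT arrays the same 6 genes stayed higher in liver than in each other tissue. The liver slide held no heart or muscle, so those differences ran through the brain of WT1 alone. For muscle they also ran through the heart of WT3, the one WT heart on the muscle slide. In the brain of WT1 the 8 hepatocyte markers had a mean level of -0.56, against -3.92 to -3.03 in the other brains. The part of liver transcripts in these slide differences was not tested. Heart and muscle RNA was extracted with another kit than liver and brain RNA, and kit and tissue cannot be told apart there.

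The low heart values of Otc and Arg1 went with liver transcripts on the same arrays. Otc read -7.71, -4.47 and -7.40 in the hearts of WT1, WT2 and WT3 and -5.40, -4.90 and -6.24 in those of KI1, KI2 and KI3. Those of WT1, WT3 and KI3 were not well above background. Arg1 read -7.45, -4.14 and -6.38 in WT and -5.09, -4.84 and -5.28 in KI, with WT1 and WT3 not well above background. Among the hearts with a measured level, WT2 was highest for both genes, then KI2 and KI1, with KI3 last for Arg1. The mean level of the 8 hepatocyte markers in the same hearts was 1.22 in WT2, 0.50 in KI1, 0.41 in KI2, -0.22 in KI3, -1.01 in WT3 and -1.09 in WT1. The 3 hearts without a measured Otc level were thus the 3 with the lowest markers, and the 2 without a measured Arg1 level the 2 lowest. At least 7 of the 8 markers were well above background in each heart. Cps1 differed from both: its hearts read -3.83, -3.89 and -6.31 in WT and -4.95, -4.45 and -6.14 in KI, and WT1, lowest in the markers, was highest in Cps1. WT3 and KI3 were not well above background for Cps1. These were also the hearts on the slide that held the muscles, while the other hearts shared a slide with brains. Slide and mouse cannot be told apart in these Cps1 values. The part of liver transcripts in these heart values was not tested. Without the heart array of WT2 the same 6 genes stayed higher in liver than in each other WT tissue.

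**Figure D3:**
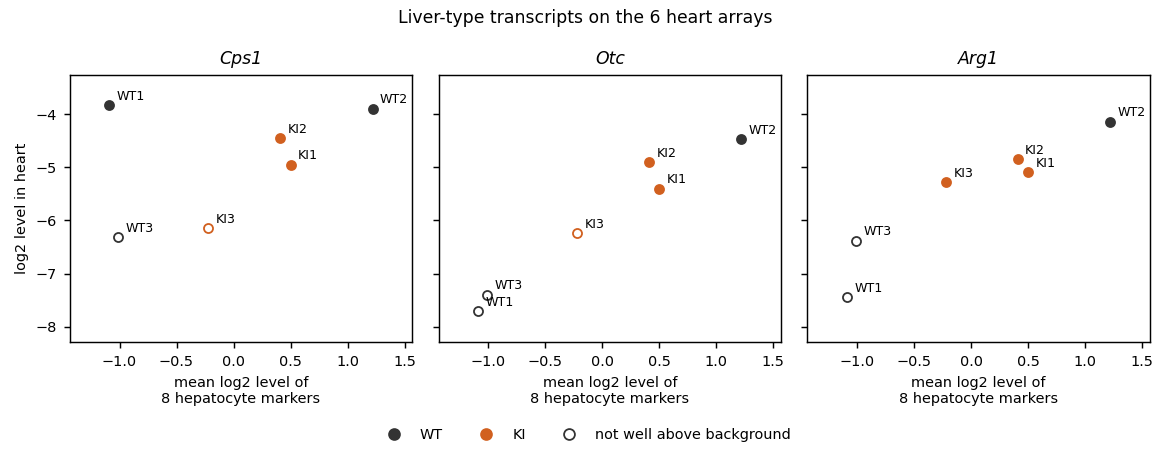
Log2 level of Cps1, Otc and Arg1 (y axis) against the mean log2 level of 8 hepatocyte markers (x axis) on the 6 heart arrays, WT in black and KI in orange, open where not well above background. Otc and Arg1 are highest in WT2 and not well above background in WT1 and WT3, the hearts with the highest and the lowest markers; Cps1 is highest in WT1, where the markers are lowest.

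No urea cycle gene was called different between KI and WT liver, where 0% of 35213 probes were called at an adjusted p under 0.05 (limma; 2.13% had an unadjusted p under 0.05). For Arg2 liver was too dim to test, and the other 7 genes could be tested, and none had an unadjusted p under 0.05 either. The KI mean was the lower in all 7, with a median difference of -0.10 log2 units, whereas 51.5% of probes were lower and the median over 16046 genes was 0.03. The sign changed with the scale for some of the 7 genes. With the z-scores of the series table none reversed, and with normexp background correction only Cps1 did (0.01). With quantile normalization Cps1 and Asl were above 0, and Ass1, Arg1, Nags and Slc25a15 stayed below it. The 8 hepatocyte markers were themselves lower in KI (8 of 8 means lower, 0 called, a KI minus WT median of -0.30). Relative to them, a scaling chosen after the data were seen, 5 of the 7 genes were above 0 (0.09 to 0.24). In none of these fits was a gene called.

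The intervals bound what 3 against 3 mice could show. For Cps1 (7.07 ± 0.19 in WT and 7.02 ± 0.21 in KI, SD, n = 3) the KI level lay between 0.681 and 1.36 times WT (95% interval). Nags, Asl, Otc and Arg1 had KI minus WT differences of -0.10, -0.02, -0.10 and -0.18 with intervals no wider than from -0.65 to 0.45. Ass1 differed most among the 6 liver-rich genes, at -0.33 (SE 0.24, 95% interval -0.89 to 0.23, adjusted p = 1), with KI3 lowest, WT2 highest and overlapping groups. On its dimmer probe, WT livers read 8.32, 8.60 and 8.29 and no KI liver read above 8.18, so that all KI values lay below all WT values, as for 3.07% of probes (-0.29, SE 0.19, adjusted p = 1, exact permutation p = 0.1, the smallest that 3 against 3 allows). The difference of the brighter Ass1 probe was -0.06 under quantile normalization.

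**Figure D4:**
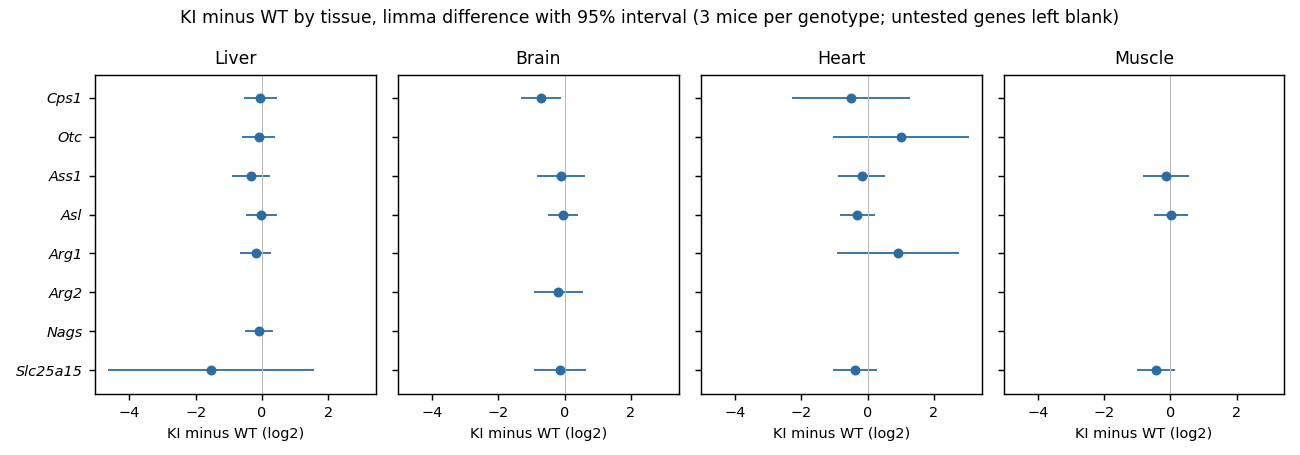
KI minus WT on the log2 scale (x axis) for each gene that could be tested in each tissue, limma difference with its 95% interval from 3 mice per genotype. All intervals include 0 except that of Cps1 in brain, and the widest in liver is that of Slc25a15, from -4.65 to 1.57.

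Slc25a15 differed by -1.54 log2 units in liver (SE 1.32, 95% interval -4.65 to 1.57, adjusted p = 1), and its probe was well above background in all 6 livers. Its SD within genotype was 2.14, against a median of 0.32, and 0.236% of the liver probes varied more. The 6 livers spanned 5.35 log2 units, or 40.9-fold, and 0.329% of liver probes spanned 5 units or more. Both 5-month-old mice were lowest, below all 4 younger mice, as 10.4% of liver probes were (24.1% had both older mice highest). Among the younger mice the WT livers were the higher ones. With age as a block the difference was the same with an SE of 0.63 (adjusted p = 0.99), and with 1 mouse left out it ranged from -3.11 without WT1 (adjusted p = 0.38) to -0.44 without WT2, with -0.89 without KI1 and -1.07 without WT3. With 1 older mouse per genotype, age and mouse cannot be told apart. In brain, heart and muscle the same probe spanned about 1 unit over the 6 mice (0.91, 1.00 and 1.01).

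The 3 genes most like Slc25a15 over the 24 arrays were picked by that likeness, the livers included. A shared liver pattern was therefore built into the choice and is no separate result. Sephs2, which makes the selenium donor for selenoproteins, had a Pearson r of 0.967 among 18555 genes, Tmem243 of 0.947 and Gsr, glutathione reductase, of 0.932. Sephs2 read -1.19, 3.72 and 3.01 in the livers of WT1, WT2 and WT3 and -0.97, 1.02 and 0.23 in those of KI1, KI2 and KI3. For all 3 genes, WT2 was highest, then WT3, KI2, KI3, KI1 and WT1, the order of Slc25a15 itself. None of the 6 liver-rich cycle genes had this order of mice: Ass1 and Arg1 were highest in WT2 and next in WT1, Cps1 was highest in WT3, and Otc, Asl and Nags were highest in WT1.

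**Figure D5:**
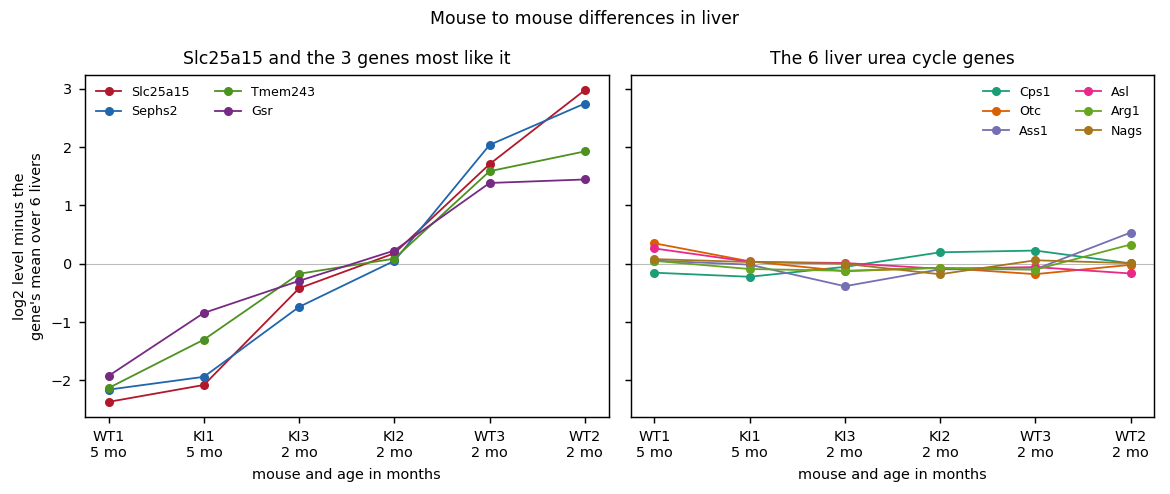
Log2 level minus the gene's own mean over the 6 livers (y axis), by mouse with its age in months (x axis), mice ordered by their Slc25a15 level. Slc25a15, Sephs2, Tmem243 and Gsr (left) rise along this order with the 2 mice of 5 months lowest, and the 6 liver-rich urea cycle genes (right) stay within about 1 unit. Sephs2, Tmem243 and Gsr were picked for their likeness to Slc25a15 on these arrays.

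Of the 8 genes 5 were testable in brain, 6 in heart and 3 in muscle, and none was called in any of them, as was no probe (0% called in each tissue; 2.62%, 7.51% and 2.47% at an unadjusted p under 0.05). Cps1 in brain was the one gene with an unadjusted p under 0.05 (-0.71, SE 0.25, 95% interval -1.31 to -0.11, p = 0.028, adjusted p = 1, limma; exact permutation p = 0.1). All 3 KI brains were below all 3 WT brains, as for 3.74% of probes, near the lower end of what the array measured, and the difference was -0.17 with normexp background correction. The mean level of the hepatocyte markers was -0.56 in the brain of WT1, highest for Cps1, and -3.03 to -3.92 in the other 5, and the difference without WT1 was -0.60. In brain, Ass1, Asl, Arg2 and Slc25a15 differed by -0.11, -0.05, -0.20 and -0.15. In heart the widest intervals were those of Otc (1.01, 95% interval -1.03 to 3.06) and Arg1 (0.92, -0.91 to 2.76). The KI mean was the lower for 5 of 5 genes in brain (48.2% of all genes and 58.1% of probes). It was so for 4 of 6 in heart (58.4% and 52.1%) and 2 of 3 in muscle (60.6% and 60.3%). In muscle Slc25a15 differed by -0.43 (adjusted p = 0.94), with overlapping groups.

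A test of whether the genotype difference itself changed between tissues called none of the 8 genes and 0% of 42322 probes (limma F test; 2.92% of probes and none of the 8 genes at an unadjusted p under 0.05). The lowest unadjusted p among the genes was 0.10, for Arg1.

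Other genes of nitrogen handling were counted in the same way, beside 38.3% of all probes called higher in WT liver than in brain and 29% lower. Of 13 genes that supply it with nitrogen or bicarbonate, 9 were called higher in WT liver than in brain, 2 lower and 2 neither, with a median of 4.14 log2 units. Slc38a3, a glutamine transporter, was 5.81 units higher, Gpt, alanine aminotransferase, 5.46 and Slc25a13, the mitochondrial aspartate carrier that feeds Ass1 with its substrate, 7.08. Gls2, which releases ammonia from glutamine in liver, was 9.58 units above heart and 10.76 above muscle. Of 13 measured genes that use arginine or ornithine, 6 were higher in liver than in brain and 5 lower (median 0.67), shares near those of all probes. Among them were Agmat, agmatinase (7.10 higher), Slc7a2, a transporter of cationic amino acids (6.22 higher), Oat, ornithine aminotransferase (4.32 higher), and the urea transporter Slc14a1, which was 4.27 units lower.

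Of 10 regulators of the cycle, 9 were higher in liver than in brain and 1 lower (median 4.45; 38.3% and 29% of probes). Hnf4a, a transcription factor that sets hepatocyte identity, was at least 13.68 units higher (adjusted p = 6.4e-08, measured in 1 of 3 brains), the glucagon receptor Gcgr 7.36, Ppara, the nuclear receptor of the fasted liver, 6.26 and the factor Klf15 4.24. All 12 genes of amino acid breakdown were higher in liver than in brain (median 8.45). Tat, tyrosine aminotransferase, was 9.48 units higher, Aass, which starts lysine breakdown, 6.66, Aldh4a1 5.17 and Tdo2, which opens the tryptophan ring, at least 12.14 (2 of 3 brains measured). The same counts with the median for the urea cycle were 7 higher, 1 lower and 8.59.

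By genotype in liver none of these lists held a called gene. Of the 13 nitrogen supply genes Rhbg, an ammonia transporter, had all KI livers above all WT livers (0.57 higher, SE 0.23, unadjusted p = 0.04, adjusted p = 1), against 2.77% of probes, and 7 of the 13 means were lower (median 0.00). The 12 measured genes of arginine and ornithine use had 7 lower means (median -0.03), the 10 regulators 7 (median -0.09) and the 12 amino acid breakdown genes 9 (median -0.07). The 10 periportal markers, genes of the hepatocytes in which the cycle is strongest, had 8 lower means (median -0.27), with Etnppl at -0.58 and Gls2 at -0.36, and 10 pericentral markers had 5 (median -0.03). Among the latter Cyp7a1, the rate-limiting enzyme of bile acid synthesis, was 1.21 higher (SE 0.39, unadjusted p = 0.017, adjusted p = 1). Markers of other liver cells were not called either: 8 of 8 macrophage markers had the higher mean in KI (median 0.21; mean level 2.27 to 2.90 in WT and 2.60 to 3.27 in KI), and 4 of 6 tested adipocyte markers did (median 0.65). Their part in the differences was not tested.

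Over the 24 arrays the 6 liver-rich genes followed each other, with Pearson r of 0.917 (Otc and Ass1) to 0.992 (Otc and Arg1), points in which the 6 livers stood far from the other arrays. Slc25a15 reached 0.597 to 0.680 with them and Arg2 -0.104 to 0.271. Outside the cycle, Cps1 was most like Ces3b, Ugt3a2 and Serpina10 (0.994 to 0.997), Otc like Mat1a, Ugt2b34 and Cyp3a57 (0.998 each), Arg1 like Cyp2c70, Slc27a5 and C8b (0.994 to 0.995) and Nags like Apon, Ttc36 and Mat1a (0.994 to 0.995). Ass1 was most like Aass, Cyp2j8 and Nat8f1 (0.994 to 0.995) and Asl like Tedc2, 1700001C19Rik and Tmem183a (0.992 to 0.994). Arg2 was most like Syngr3, a synaptic vesicle protein, Ncam2, a neural cell adhesion molecule, and Cnp, a myelin enzyme (0.967 to 0.972), which were highest in brain as it was.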

How the data were processed

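Total RNA of liver, brain, heart and muscle from 3 WT and 3 Rap1 KI/KI mice was labelled with Cy3 and hybridised to 24 1-color Agilent arrays on 3 slides. Per the file headers, Feature Extraction 12.0.3.1 made the deposited intensity (gProcessedSignal), background-subtracted and detrended, with no scaling between arrays. The series table deposited by the authors holds a score per probe, the z-score of log10 processed signal within each array (recomputed from the scanner files, largest difference 0.005), and was used as an alternative.

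Spots were averaged per probe without controls and flagged outliers. Levels are log2 intensity minus the 75th percentile of the array. Symbols came from RefSeq accessions, and 28331 of 55681 probes were named. limma 3.58.1 in R 4.3.3 was fitted per tissue for genotype (a probe had to exceed background on 3 of 6 arrays or more), on 12 arrays of 1 genotype for tissues (2 of 3 arrays of some tissue) and on 24 arrays for the interaction, with Benjamini-Hochberg adjustment over all probes tested, and was tested on simulated data. Groups came from the labels, and p-values measure the spread between mice. A bound took, for each array where the probe was not well above background, the higher of its signal and the lowest signal among probes well above background. Named genes were the 8 genes, at most 4 of each other list by smallest p, and the 3 genes with the highest Pearson r to each. The Slc25a15 age comparison was chosen after its values were seen. Members and lists were chosen with earlier results of these data known.

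Alternatives were quantile normalization, normexp (offset 50, on the median signal since the files hold no mean signal), the z-score, other filters, age, slide or mouse as a block, and each mouse left out. Mouse numbers link tissues of 1 animal: over 36 pairs of tissues, deviations of the same mouse correlated at -0.30 to 0.36 (median 0.07), with a consensus correlation of 0.0259. The number of arrays limits the precision.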

Additional observations from a re-analysis of the deposited data

How the results depend on the processing

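Of 670 alternative values for differences between tissues, 617 kept their direction and their side of the threshold, 38 fell below it, 11 passed it and 4 reversed, and the 6 genes higher in liver than in each other tissue numbered 6 or 7 under every alternative run. No gene was called by genotype under any alternative, and 28 of 346 genotype values reversed. KI minus WT in liver was 0.07 (Cps1) and 0.08 (Asl) with quantile normalization, 0.01 (Cps1) with normexp, and, relative to the 8 hepatocyte markers, 0.21 (Cps1), 0.17 (Otc), 0.24 (Asl), 0.09 (Arg1) and 0.17 (Nags). With normexp it was 0.02 for Asl in brain, -0.02 for Otc and -0.06 for Arg1 in heart, and Arg1 in KI heart minus muscle was -0.33. With the z-scores Slc25a15 in KI brain minus heart was 0.02. With 1 mouse left out, KI minus WT ranged from -0.17 to 0.05 for Cps1, -0.21 to 0.05 for Otc and -0.11 to 0.10 for Asl in liver. It ranged from -0.27 to 0.13 for Ass1, -0.12 to 0.07 for Asl, -0.37 to 0.10 for Arg2 and -0.44 to 0.06 for Slc25a15 in brain, from -0.40 to 0.07 for Ass1 in heart, and from -0.36 to 0.17 for Ass1 and -0.11 to 0.14 for Asl in muscle. Slc25a15 brain minus heart ranged from -0.62 to 0.23 in WT and from -0.28 to 0.05 in KI. The interaction called 0 to 4 probes, the 4 without WT1, and none of the 8 genes. The cause of these changes was not tested.

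With the mouse as a replicate block, 67 of 69 tissue differences kept their call. The exceptions were Asl in WT brain minus muscle (adjusted p = 0.064) and Slc25a15 in KI brain minus muscle (0.052), and no genotype or interaction call changed. The hepatocyte scaling, the other probe of Ass1 and Otc, the slide block over the 12 WT arrays and the fit without the heart array of WT2 were chosen after seeing the data. Levels near background limit how exactly the folds are known. These are chiefly the levels of Cps1, Otc, Arg1 and Nags outside the liver and of Arg2 outside the brain. With normexp, WT liver minus brain was 6.98 log2 units for Nags and 10.78 for Otc. Their bounds on the main scale were 9.74 and 13.07.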
